A study of Mus musculus with 3 samples.

Results

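The genes described here were 10 members of the SR protein family, Srsf1, Srsf2, Srsf3, Srsf4, Srsf5, Srsf6, Srsf7, Srsf9, Srsf10 and Srsf11, chosen by name from the 21770 protein-coding genes with a coding canonical transcript in GENCODE vM39. The question was where Tra2β touches the transcripts of other SR protein genes, counted over every canonical exon, intron and untranslated region (UTR) and not only over poison exons. Tra2β contacts had been mapped by iCLIP in 3 biological replicates of total testis from adult wild type mice, a tissue labelled as mixed in cell type, with a polyclonal anti-Tra2b antibody (Abcam, ab31353). All libraries shared this genotype, tissue and antibody, and strain, exact age and the number of animals behind a replicate were not given in the labels. No library without Tra2β, without antibody or of input RNA was analysed here, and parts of transcripts were therefore set against each other inside the same library.

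In iCLIP, proteins are joined to the RNA in contact with them by ultraviolet light, and reverse transcription of the immunoprecipitated RNA tends to stop at the fixed nucleotide. A crosslink below is 1 unique cDNA at 1 nucleotide on the strand of the gene. SR proteins are splicing factors with RNA recognition motifs and a domain rich in arginine and serine (RS domain) that contacts other parts of the splicing machinery. Their genes carry ultraconserved alternative exons and introns whose inclusion leads to nonsense-mediated decay (NMD), by which many of them hold their own levels in check. Tra2β is an SR-like protein that binds purine-rich RNA with a GAA core.

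The libraries held 348033, 619571 and 488719 crosslinks in replicates 1, 2 and 3, and the 10 genes together held 283, 381 and 451 of them, 784 ± 156 CPM, the usual scaling of counts to the library total (SD, n = 3). Germ cell markers had crosslinks in all 3 libraries for 12 of 12 genes, with a summed level of 3733 to 5375 CPM. Sertoli cell markers had them for 5 of 5 genes (157 to 279 CPM) and Leydig cell markers for 4 of 5 (74.2 to 115 CPM). The liver markers Alb and Apoa1, the muscle markers Acta1 and Myh4 and the blood markers Hbb-bs and Hba-a1 had none in any library, where a count of 0 allows a level of up to 4.84 to 8.62 CPM per gene (3 counts, for counting error only). Depth at single nucleotides was low: of 1046 crosslinked positions in the 10 genes, 29 were found in at least 2 libraries and 2 in all 3, so exons, introns and genes were the units compared. A crosslink count rises with the amount of an RNA as well as with contacts per RNA molecule, and in a mixed tissue with the number of cells that make it, and these cannot be told apart here.

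The 30-nt windows with the most crosslinks in the exons of 6 members and in the introns of Srsf10 show how varied the contacted sequences were. They are given from the GRCm39 genome in the direction of transcription, with every GAA in capitals. They lie in internal or last coding exons, apart from the last one, which lies in an intron and in an alternative exon there.
Srsf11 exon 12, chr3:157717966-157717995, minus strand: caaggaGAAggagcgaGAAagGAAgtctga
Srsf6 exon 4, chr2:162775622-162775651, plus strand: GAAcGAAcaaatgagggtgtgattGAAttt
Srsf5 exon 7, chr12:80996330-80996359, plus strand: aaattaacgggaGAAaaatcaaattaattg
Srsf1 exon 4, chr11:87940300-87940329, plus strand: tcgatctcGAAgccgtagtcgtagcaGAAg
Srsf2 exon 2, chr11:116742973-116743002, minus strand: cctcctccgtctccagatcccgctcgaggt
Srsf7 exon 7, chr17:80509601-80509630, minus strand: atcaaaatccagatctccatctcctaaaag
Srsf10 intron 2, chr4:135586464-135586493, plus strand: gtcaagatGAAgttGAAtgatggccaagat
The Srsf11 window held 2, 6 and 5 crosslinks and 3 GAA triplets, and 83.3% of its bases were purines. The Srsf2 window held 3, 4 and 4 crosslinks with no GAA and 30% purines, and the Srsf7 window 2, 4 and 2 crosslinks with no GAA and 46.7% purines. The other windows held 4, 1 and 2 (Srsf6), 1, 8 and 3 (Srsf5), 2, 3 and 5 (Srsf1) and 1, 4 and 3 (Srsf10). These windows were picked for their counts, so the counts are a description.

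In GRCm39, Srsf1 lies on chromosome 11 at 87938129 to 87944581 and Srsf2 on the same chromosome at 116740723 to 116744518. Srsf3 (29251321 to 29262347) and Srsf7 (80507501 to 80514879) share chromosome 17, and Srsf4 (131600816 to 131630471) and Srsf10 (135583043 to 135602548) share chromosome 4. Srsf5 lies on chromosome 12 at 80986436 to 80997630, Srsf6 on chromosome 2 at 162773299 to 162780234, Srsf9 on chromosome 5 at 115465189 to 115476335 and Srsf11 on chromosome 3 at 157716110 to 157742310. Srsf2, Srsf7 and Srsf11 are transcribed from the minus strand. Canonical transcripts ran from 3 exons in Srsf2 to 13 in Srsf11. The annotation held 11 transcripts in Srsf6 to 97 in Srsf5, of which 5 and 55 are NMD transcripts.

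Among the 10 genes, Srsf11, which encodes an arginine and serine rich protein of nuclear speckles, had by far the most Tra2β contacts. Its canonical exons held 38.4, 32.9 and 67.8 CPM per kb in replicates 1, 2 and 3, a density of 46.4 ± 18.7 that ranked 245 of 21770 genes. It was followed by Srsf7 at 17.3 ± 1.46, Srsf2 at 15.9 ± 3.79, Srsf1 at 15.5 ± 3.15 and Srsf5 at 13.4 ± 3.31 CPM per kb of exon. Srsf6 had 9.38 ± 1.12, Srsf9 7.11 ± 3.81, Srsf4 6.19 ± 2.41, Srsf10 3.69 ± 2.12 and Srsf3 1.22 ± 0.81 (all SD, n = 3). Neighbours in this order had separate ranges over the libraries at 2 places only, between Srsf11 and Srsf7 and between Srsf5 and Srsf6. The median over all protein-coding genes was 0.411 CPM per kb, and all 10 members lay above it. This median includes genes without crosslinks, since only 13718 of the 21770 genes had an exonic one. The densities cover all exonic bases, and those of Srsf5, Srsf10 and Srsf3 include much sequence repeated in the genome (below).

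**Figure D1:**
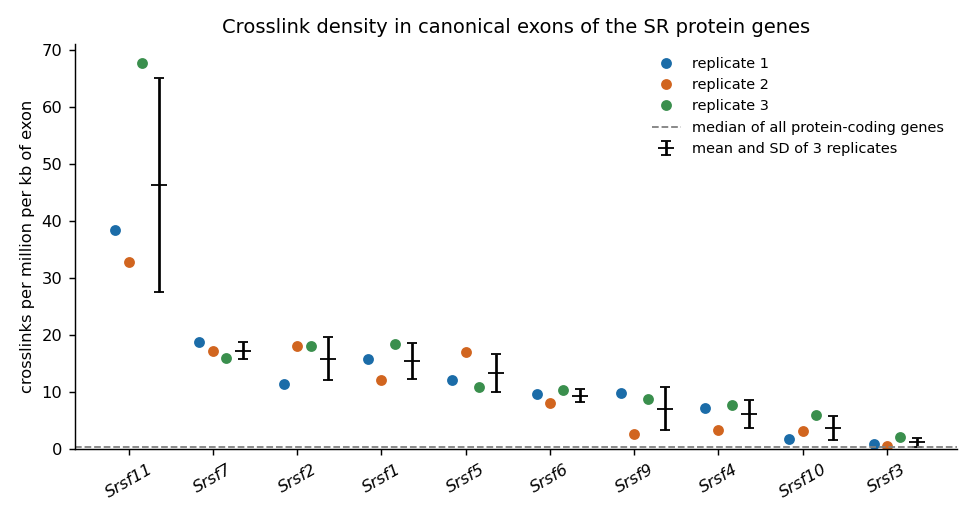
CPM per kb of canonical exon (y axis) for each SR protein gene (x axis), with 1 point per replicate, the mean and SD in black, and the median of all protein-coding genes as a dashed line. Srsf11 stands at 32.9 to 67.8, above every value of the other genes, and Srsf3 is lowest.

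Summed over exons and introns, the order was different. Srsf11 had 86, 102 and 161 crosslinks in the whole gene, Srsf10 37, 56 and 63, Srsf4 40, 40 and 50, and Srsf1 31, 42 and 51. Srsf7 had 25, 35 and 34, Srsf2 12, 33 and 26, Srsf6 18, 27 and 26, Srsf5 15, 30 and 20, Srsf9 11, 8 and 12, and Srsf3 8 in each library. Srsf10 and Srsf4 thus stood high on crosslinks per gene and low on exon density. In Srsf4, 34, 35 and 41 crosslinks were intronic and 6, 5 and 9 exonic, and in Srsf10, 27, 40 and 44 were intronic and 2, 6 and 9 exonic. In Srsf1 the exons held 30, 41 and 49 crosslinks and the introns 1, 1 and 2.

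By region, the coding sequence (CDS) of the 10 genes was the most densely contacted, with 80, 175 and 140 crosslinks or 14.8 ± 5.40 per kb (SD, n = 3). Here and below, crosslinks per kb are not scaled to the library total, so their SDs and ranges also carry differences in depth. The 3' UTRs held 50, 40 and 104 crosslinks (3.71 ± 1.98 per kb), the introns 138, 151 and 184 (1.93 ± 0.29 per kb) and the 5' UTRs 5, 2 and 9 (1.62 ± 1.07 per kb). The ranges over the libraries of the CDS and the 3' UTRs did not overlap, and neither did those of the 3' UTRs and the introns. The 3' UTRs were denser than the 5' UTRs in each library, at 2.87 against 1.52, 2.30 against 0.609 and 5.97 against 2.74 per kb, although the ranges over libraries overlapped. A further 36 crosslinks lay within the gene bounds but beyond the canonical transcript, 28 of them in Srsf10 (8, 10 and 10), whose annotated 3' end reaches past it.

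Exon and intron densities were compared in each gene and library by an exact binomial test (two-sided, with the expected share set by length), run on all 9224 genes with enough crosslinks, and a call needed an adjusted p below 0.05 in the same direction in all 3 libraries. Of the 10 members, 2 were called higher in exons, against 27.2% of all genes tested. The members' median log2 fold of exon over intron density was 1.53, beside 2.41 over all genes. Srsf11 had 42, 64 and 104 crosslinks in 3140 nt of exon against 44, 38 and 57 in 23061 nt of intron, a log2 fold of 3.39 ± 0.51 (largest adjusted p of the exact tests 6.8e-16). Srsf7, a shuttling SR protein with a zinc knuckle, had 16, 26 and 19 against 9, 9 and 15, a log2 fold of 1.89 ± 0.58 (largest adjusted p of the exact tests 0.022). Of its 33 intronic crosslinks, 32 lay in bases that are exon in another coding transcript. Bases that are exon in another transcript, except those of transcripts of retained-intron type, were then left out of introns. The log2 fold was 3.87 in Srsf7 (called), 3.29 in Srsf5 in place of 1.31 and 3.06 in Srsf1 in place of 2.07 (neither called). Few intronic crosslinks were then left, with 0, 0 and 1 in Srsf7, none in Srsf5 and 0, 1 and 0 in Srsf1. The size of these folds therefore rests largely on the 0.5 added to each count.

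Srsf10, which can act as a splicing repressor when dephosphorylated, was the only member with a log2 fold below 0 in every library. Its exons held 2, 6 and 9 crosslinks in 3058 nt and its introns 27, 40 and 44 in 7011 nt. The log2 folds were -2.26, -1.44 and -1.03, and 0.336% of genes had a lower mean. The unadjusted p was below 0.05 in all 3 libraries, but the largest adjusted p of the exact tests was 0.0707, so the gene was not called. Without replicate 3 it was called lower in exons (log2 fold -1.85, largest adjusted p of the exact tests 0.0223), and without replicate 1 Srsf1 was called higher (2.14, largest adjusted p of the exact tests 0.0370). Srsf3, the smallest member of the family, had a log2 fold of -0.28 ± 0.96 from 1, 1 and 3 exonic and 7, 7 and 5 intronic crosslinks, and the other 8 members lay above 0 in all 3 libraries.

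Part of the exonic sequence of 3 members also occurs elsewhere in the genome. Of the 30-nt stretches in canonical exons, 63.3% in Srsf10, 54.1% in Srsf5 and 43.7% in Srsf3 had an exact copy at another place, while in the other members the share was 7.24% at most. Introns reached 9.32% at most. The exonic bases that begin such a repeated stretch held 0, 4 and 5 crosslinks in 4369 nt over the 10 genes, 0.687 ± 0.606 per kb, against 7.51 ± 2.20 per kb in the exonic bases that begin a stretch found once. In Srsf10, exonic bases found once held 2, 3 and 7 crosslinks in 1058 nt, and the log2 fold over intronic bases found once was -0.50 ± 0.53 in place of -1.58 ± 0.63. In Srsf5 the same restriction moved the log2 fold from 1.31 ± 0.60 to 2.03 ± 0.74, and in Srsf3 it left -0.22 ± 1.39. How the authors treated reads with several matches was not given in the sources used here. Leaving out repeated sequence thus brought the value of Srsf10 nearer to 0 and raised that of Srsf5, while that of Srsf3 moved by less than its SD. In Srsf3, however, 97.2% to 100% of the stretches in each of exons 2 to 5 were repeated. Its restricted value therefore rests almost wholly on the first and last exons and cannot speak for the others.

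**Figure D2:**
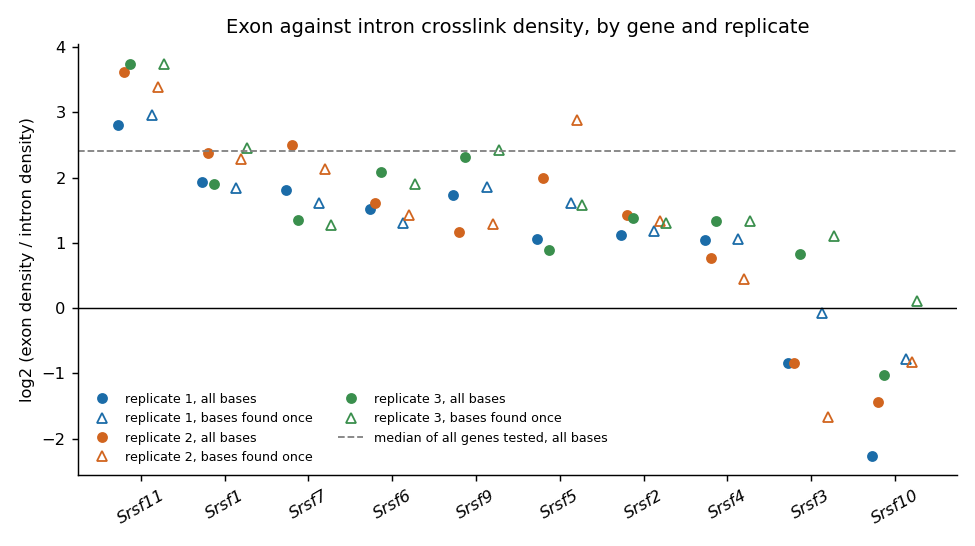
Log2 ratio of exon over intron crosslink density (y axis) for each SR protein gene (x axis) and replicate, over all bases (filled circles) and over bases that begin a 30-nt stretch found once in the genome (open triangles), with the median of all genes tested as a dashed line. Srsf11 lies highest and Srsf10 lowest, and the Srsf10 points move from between -2.26 and -1.03 up towards 0 when repeated sequence is left out.

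Within the spliced transcripts, crosslinks were densest in internal exons. Over 9 genes, 40 internal exons held 60, 139 and 95 crosslinks, 19.6 ± 7.90 per kb, against 2.94 ± 0.81 in first exons and 5.11 ± 2.56 in last exons (SD, n = 3). Srsf3 was not among these, since its 5 exonic crosslinks were below the minimum of 10. A crosslink was found in 35 of the 40 internal exons, and 17 had one in every library.

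Each exon was then compared with the other exons of its transcript in the same way. Of 58 exons tested, 1 was called higher and none lower, against 0.135% of 84524 exons called higher over all genes; at an unadjusted p below 0.05 in all libraries the members had 3 higher and 1 lower, and all 84524 exons 518 higher (0.613%) and 559 lower. The called exon was exon 2 of Srsf2 (chromosome 11, 116742847 to 116743157, 311 nt), which encodes the last 100 of the 221 residues of this splicing factor, 72.0% of them arginine or serine. It held 6, 20 and 10 crosslinks against 4, 8 and 12 in the 2180 nt of the other exons, a log2 fold of 3.33 ± 0.76 (largest adjusted p of the exact tests 0.0299). Its density was above that of both other exons in each library. Most of that reference is UTR, since exon 3 (1061 nt) encodes no residue and 757 of the 1119 nt of exon 1 are 5' UTR. The call therefore cannot be told apart from a difference between CDS and UTRs. Exon 2 was not tested against the other coding bases alone. The call was lost when genes with fewer than 10 crosslinks were also tested, which enlarges the adjustment (largest adjusted p of the exact tests 0.0725). Leaving out 1 library moved the number of members' exons called higher from 1 to 2, with exon 12 of Srsf11 added without replicate 1 and exon 4 of Srsf6 added without replicate 3.

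The other exons higher at an unadjusted p below 0.05 in every library were exon 4 of Srsf6 and exon 7 of Srsf7. Their reference exons include 3' UTRs of 3557 and 1475 nt. Srsf6 exon 4 (chromosome 2, 162775574 to 162775782) held 6, 8 and 4 crosslinks in 209 nt against 10, 16 and 20 in 4546 nt, a log2 fold of 3.16 ± 0.80 (largest adjusted p of the exact tests 0.375). Srsf7 exon 7 (chromosome 17, 80509598 to 80509633) is 36 nt long and held 2, 4 and 3 crosslinks, a log2 fold of 3.70 ± 0.15 (largest adjusted p of the exact tests 0.412). Exons 5 to 7 of Srsf7, all within its arginine and serine rich stretch, were the 3 densest of that transcript when the libraries were summed, at 99.1, 185 and 250 crosslinks per kb. The last exon of Srsf7, mostly 3' UTR, held 2, 3 and 7 crosslinks in 1530 nt, a log2 fold of -2.76 ± 1.1 (largest adjusted p of the exact tests 0.480). Without replicate 3 this exon and the last exon of Srsf6 were called lower, with log2 folds of -3.39 and -2.77 (largest adjusted p of the exact tests 0.00483 and 0.00791).

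**Figure D3:**
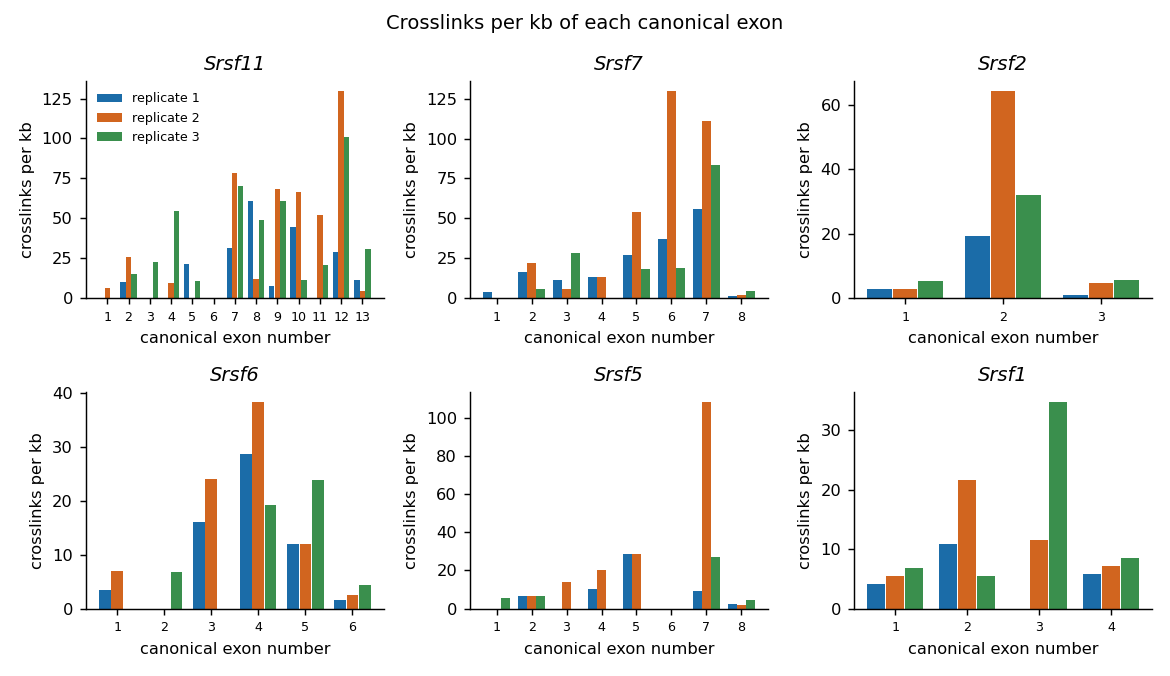
Crosslinks per kb (y axis) in each canonical exon (x axis, numbered along the transcript) of 6 SR protein genes, with 1 bar per replicate. In Srsf2 exon 2 is highest in every replicate, and in Srsf7 exons 5 to 7 rise above the long last exon.

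In some genes the weight of single exons differed between libraries. Over the 9 genes, internal exons held 60, 139 and 95 crosslinks and last exons 66, 63 and 143, so such differences also ran across genes. Exon 12 of Srsf11 (chromosome 3, 157717947 to 157718085), whose 84.2% purine share exceeds that of 99.9% of internal coding exons, held 4, 18 and 14 crosslinks in 139 nt against 38, 46 and 90 in the 12 other exons. Its log2 fold was 2.08 ± 0.92, and the adjusted p of the exact test was 0.901 in replicate 1 but 7.9e-08 in replicate 2 and 0.0148 in replicate 3. Exon 7 of Srsf5 (chromosome 12, 80996268 to 80996378) held 1, 12 and 3 crosslinks in 111 nt against 7, 8 and 7 elsewhere, so that replicate 2 alone passed the adjusted test. Of the 30-nt stretches of that exon, 76.8% also occur elsewhere in the genome. Srsf1, the founding member of the family, had most of its crosslinks in exon 4, which holds the end of the coding sequence and the whole 3' UTR. That exon held 25, 31 and 37 crosslinks in 4344 nt against 5, 10 and 12 in 1088 nt, a log2 fold per length of -0.20 ± 0.36.

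By count, the exon with the most crosslinks was the last one in every member but Srsf2 (exon 2) and Srsf5 (exon 7). In Srsf11 it was exon 13 with 20, 8 and 53 crosslinks, and in Srsf7 exon 8 with 2, 3 and 7. Exon 6 of Srsf6 held 6, 10 and 17, exon 6 of Srsf4 3, 3 and 9, exon 6 of Srsf10 2, 1 and 8, and exon 4 of Srsf9 4, 0 and 1. In Srsf3, exon 6 held 1, 0 and 2 of its 5 exonic crosslinks. The share of exonic crosslinks in the last exon differed between libraries in Srsf11, at 47.6%, 12.5% and 51.0%. In Srsf1 the shares were closer together, at 83.3%, 75.6% and 75.5%. Replicate 2 had none there in Srsf9 and Srsf3, where it had only 2 and 1 exonic crosslinks.

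The 3' UTR was compared with the CDS of the same transcript in 8 members, and 2 were called lower, against 7.07% of 5531 genes. In Srsf6, the 3' UTR held 4, 6 and 10 crosslinks in 3557 nt against 11, 17 and 14 in 1017 nt of CDS, a log2 fold of -2.89 ± 0.54 (largest adjusted p of the exact tests 0.0015). In Srsf7 it held 2, 1 and 4 in 1475 nt against 13, 25 and 15 in 714 nt, a log2 fold of -3.81 ± 1.19 (largest adjusted p of the exact tests 5.6e-04). At an unadjusted p below 0.05 in every library, 4 members were lower, these and Srsf1 and Srsf2, and the members' median log2 fold was -2.34 beside -1.19 over all genes. Srsf1 was called lower without replicate 1 (log2 fold -2.1, largest adjusted p of the exact tests 0.00141) and Srsf2 without replicate 3 (-2.90, 0.0310). Srsf11 was split by library: replicate 2 had 1 crosslink in the 3' UTR against 63 in the CDS, while replicates 1 and 3 had 15 against 27 and 45 against 59. The last exon of Srsf11 held 20, 8 and 53 crosslinks. Over the 10 genes together, which include Srsf11, replicate 2 had 40 crosslinks in 3' UTRs against 175 in the CDS. Replicates 1 and 3 had 50 against 80 and 104 against 140. In Srsf5, the 3' UTR held 2, 0 and 2 crosslinks against 6, 20 and 7 in the CDS. The difference was thus not limited to Srsf11, although Srsf1 had 20, 25 and 24 against 9, 16 and 22.

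The crosslinked sequences of the members were compared with their own exons by searching the 30 nt on each side of every crosslinked exonic position on the gene strand for AGAA and GAAGA. AGAA was present at 51.4% ± 6.4 of positions (SD, n = 3) against 32.2% of all exonic bases of the members, a ratio of 1.60 ± 0.20. GAAGA, which overlaps AGAA by 3 letters at most when both are in the same place, was present at 27.4% ± 6.8 against 8.73%, a ratio of 2.95, 3.99 and 2.46 in replicates 1, 2 and 3. Over all protein-coding genes the ratios were 1.54 ± 0.11 and 2.58 ± 0.42. Across the 44 coding internal exons of the members, crosslinks per kb had a Spearman correlation of 0.15 with purine share, 0.06 with GAA density and 0.22 with the share of arginine and serine among the encoded residues. These are descriptions across exons that share genes and libraries.

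The arginine and serine codons are of interest because RS domains define the family. A stretch was taken from the first to the last window of 20 residues with at least 50% arginine and serine. Residues between such windows were included, so the arginine and serine share of the whole stretch was lower in some members. It was 46.2% in Srsf5, 48.3% in Srsf4 and 48.5% in Srsf6. In these members the stretch ran from residue 71 (Srsf5), 74 (Srsf4) and 80 (Srsf6) to the last residue. There it covers most of the CDS and does not stand for the RS domain alone. A stretch was found, with crosslinks enough for a value, in 7 members. Crosslink density in the codons of the stretch exceeded that of the rest of the CDS in all 3 libraries in 6 of the 7, with a median log2 fold of 1.11, beside 46.7% and a median of 0.74 over 1042 genes with such a stretch. In Srsf6 the codons of the stretch held 11, 16 and 13 crosslinks in 780 nt against 0, 1 and 1 in 237 nt. Of these, 6, 8 and 4 lay in exon 4, whose residues are 25.7% arginine and serine. In Srsf5, exon 7 with 16.2% lies inside the stretch and held 1, 12 and 3. The stretch held 5, 6 and 13 in 177 nt against 4, 10 and 9 in 567 nt in Srsf1. In Srsf2 it held 6, 18 and 8 in 330 nt against 1, 5 and 4 in 333 nt. Srsf4, which has the longest such stretch of the 7, was the member that was not above in all libraries, with 5, 4 and 6 against 1, 0 and 0. The 19 coding internal exons with at least 30% arginine and serine held 22.4 ± 9.27 crosslinks per kb and the other 25 exons 15.3 ± 6.45 per kb, the first class being higher in each of the 3 libraries while the means differed by less than its SD. With 3 libraries an exact sign-flip test gives a two-sided p of 0.25 at best.

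Introns held 473 of the 1115 crosslinks of the 10 genes. Each canonical intron was compared with the other introns of its transcript, and none of the 46 tested was called, against 0.271% of 99184 introns called higher over all genes. At an unadjusted p below 0.05 in all libraries, 2 were higher and 1 lower, against 913 higher (0.92%) and 480 lower of all introns tested. The higher ones were intron 3 of Srsf11 (3774 nt), with 16, 23 and 27 crosslinks beside 28, 15 and 30 elsewhere among introns, and intron 2 of Srsf10 (3364 nt), with 21, 33 and 37 against 6, 7 and 7. Their log2 folds were 2.24 ± 0.70 (largest adjusted p of the exact tests 0.0834) and 2.19 ± 0.31 (largest adjusted p of the exact tests 0.143). Srsf11 intron 3 was called when bases shared with another gene on the same strand were left out (adjusted p of the exact tests 0.0444) and when 50 nt next to each splice site were left out (0.0400). In another setting, exon bases of other transcripts were left out, except those of transcripts of retained-intron type. Srsf10 intron 2 then had a log2 fold of 1.49 ± 1.06 (largest adjusted p of the exact tests 1) and Srsf11 intron 3 one of 2.43 ± 0.65 (largest adjusted p of the exact tests 0.118). Over all Srsf11 introns, bases that are exon in retained-intron but in no coding or NMD transcript held 12, 18 and 20 crosslinks. Without replicate 1 both introns were called (largest adjusted p of the exact tests 9.5e-06 for Srsf11 and 0.0010 for Srsf10). The lower one was intron 9 of Srsf11, with 0, 0 and 1 crosslinks in 2280 nt.

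Intron 1 of Srsf4, at 17336 nt the longest intron of these genes, held 28, 30 and 37 crosslinks while the remaining 4 introns held 6, 5 and 4, for a log2 fold of 1.53 ± 0.47 (largest adjusted p of the exact tests 0.933). Another gene on the same strand, A930004J17Rik, shares 20 of the Srsf4 crosslinks, and Gm43362 shares 14 of those of Srsf11. In the other members the leading introns were intron 5 of Srsf5 (4, 6 and 8), intron 3 of Srsf7 (3, 6 and 8), intron 2 of Srsf2 (2, 5 and 4), intron 3 of Srsf3 (4, 3 and 3), intron 1 of Srsf9 (2, 3 and 4), intron 2 of Srsf6 (2, 3 and 1) and intron 3 of Srsf1 (1, 0 and 2). The 23 introns under 500 nt held 3, 5 and 4 crosslinks in all, 0.719 ± 0.180 per kb, against 2.02 ± 0.31 per kb in the 31 longer ones.

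**Figure D4:**
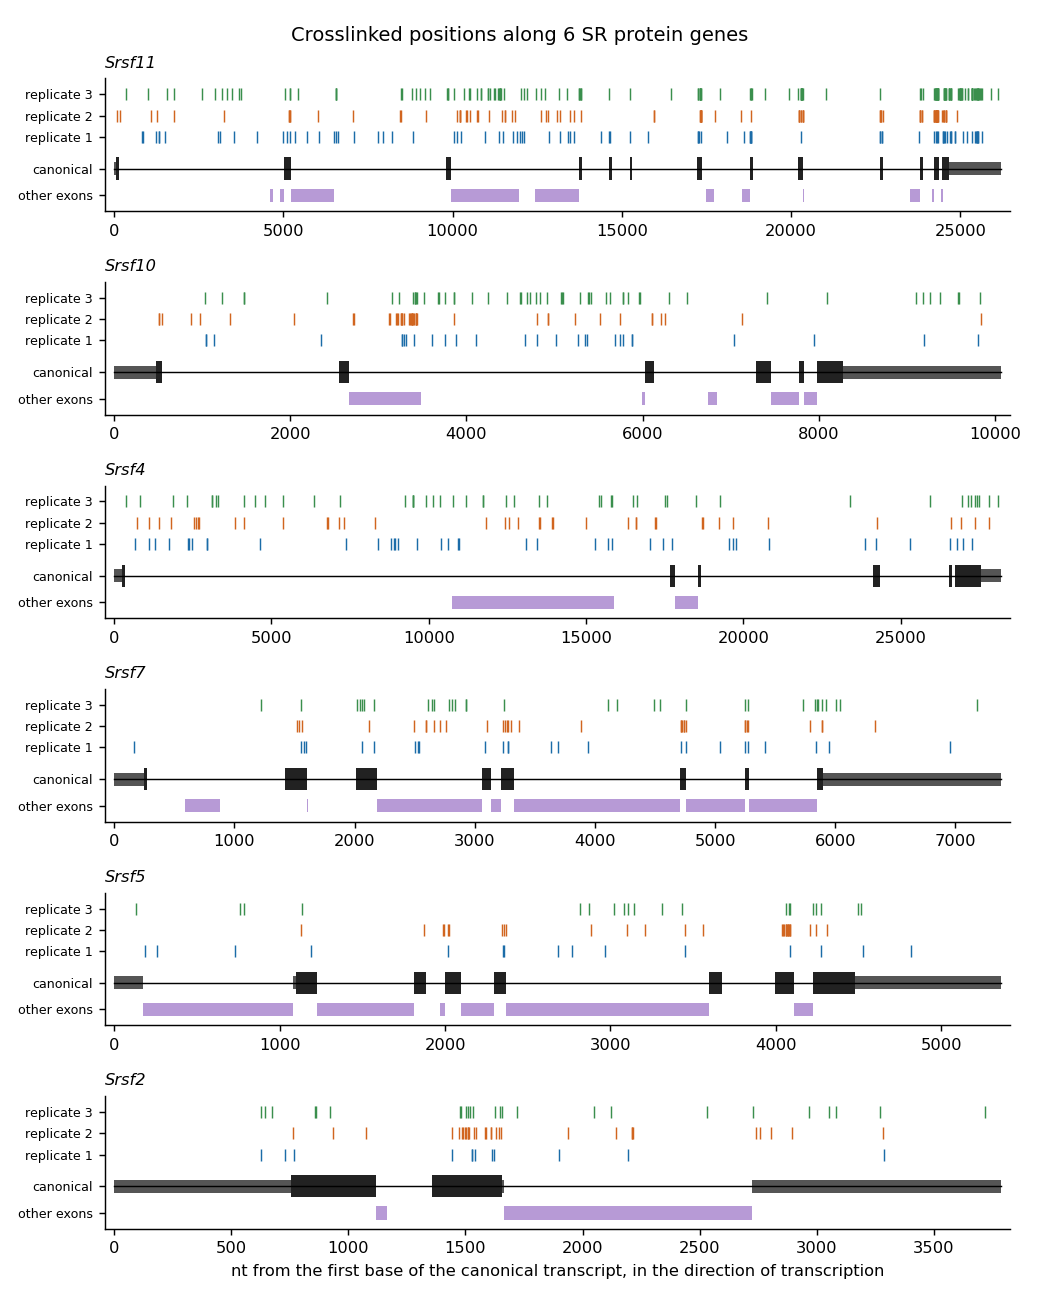
Crosslinked positions of 6 SR protein genes in each replicate (coloured ticks, 1 row per replicate) along the canonical transcript (x axis, nt from its first base), above the canonical exons (dark bars, coding part taller) and the intronic bases that are exon in another annotated transcript (purple). Ticks gather in the last exons and intron 3 of Srsf11, in intron 2 of Srsf10 and in exon 2 of Srsf2, and are scattered along intron 1 of Srsf4.

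Whole canonical introns lie within an exon of another annotated transcript in 9 of the genes, 18 introns of 54 in all, while Srsf11 has 11 transcripts of retained-intron type and none that spans a canonical intron whole. These 18 introns held 29, 28 and 35 crosslinks, 2.22 ± 0.27 per kb, and the other 36 held 109, 123 and 149, 1.88 ± 0.30 per kb (SD, n = 3). The spanned introns were denser in each library, at 2.09 against 1.61, 2.02 against 1.82 and 2.53 against 2.20 per kb, although the ranges over libraries overlapped. Within genes, 7 members had both kinds of intron and enough crosslinks, and none was called, against 0.502% of 2392 genes called higher; none reached an unadjusted p below 0.05 in all libraries. The members' median log2 fold was 0.50, beside 1.46 over all genes. Both medians include the 0.5 added to each count, which raises the fold of a short part with few crosslinks. In the single-intron comparison, intron 5 of Srsf3 (90 nt) had no crosslink and yet a log2 fold of 2.72. The medians therefore do not measure how much denser spanned introns are. Srsf7 came nearest to a call, with 9, 9 and 14 crosslinks in its 5 spanned introns against 0, 0 and 1 in 1555 nt of its other introns. Its log2 fold was 2.8 ± 0.56 (largest adjusted p of the exact tests 0.727).

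The spanned introns with the most crosslinks belonged to 3 genes. Intron 5 of Srsf5 (chromosome 12, 80994640 to 80995868), which 10 annotated transcripts retain, 7 of them NMD transcripts, held 4.88 ± 1.63 crosslinks per kb. Intron 3 of Srsf7 (chromosome 17, 80511817 to 80512690), retained in 4 transcripts, held 6.48 ± 2.88 per kb. Intron 2 of Srsf2 (chromosome 11, 116741788 to 116742846), retained in 3, held 3.46 ± 1.44 per kb. Of the others with 3 or more crosslinks, intron 3 of Srsf3 had 4, 3 and 3, intron 5 of Srsf7 3, 2 and 4, intron 7 of Srsf7 2, 1 and 2, intron 2 of Srsf6 2, 3 and 1, intron 1 of Srsf5 3, 0 and 2, intron 2 of Srsf9 3, 1 and 0, and intron 3 of Srsf1 1, 0 and 2.

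The intronic bases were also divided by the kind of transcript that holds them as exon, counting each base once in the order coding, NMD and retained-intron type. Bases that are exon in another coding transcript held 2.61 ± 0.50 crosslinks per kb, those of NMD transcripts 2.49 ± 0.68 and those of retained-intron transcripts 2.63 ± 0.47. Bases that are exon in no annotated transcript made up 61.5% of the intronic bases, held 75, 57 and 101 crosslinks and had 1.55 ± 0.44 per kb. In each library the unannotated bases had the lowest density of these 4 classes, and their range over libraries overlapped that of the NMD class. The classes pool genes of different crosslink level, and single genes filled much of some. Srsf11 held 50 of the 59 crosslinks of the retained-intron class and Srsf7 32 of the 69 of the coding class. By the order of classes, Srsf7 kept only 4 nt in the NMD class. Its 460-nt exon of 8 NMD transcripts, with 14 crosslinks, was counted as coding. Srsf4 and Srsf11 gave 19956 and 17429 of the 50207 unannotated nt. Class and gene cannot be told apart in these sums. A remaining 267 nt of other transcript types held 1 crosslink.

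**Figure D5:**
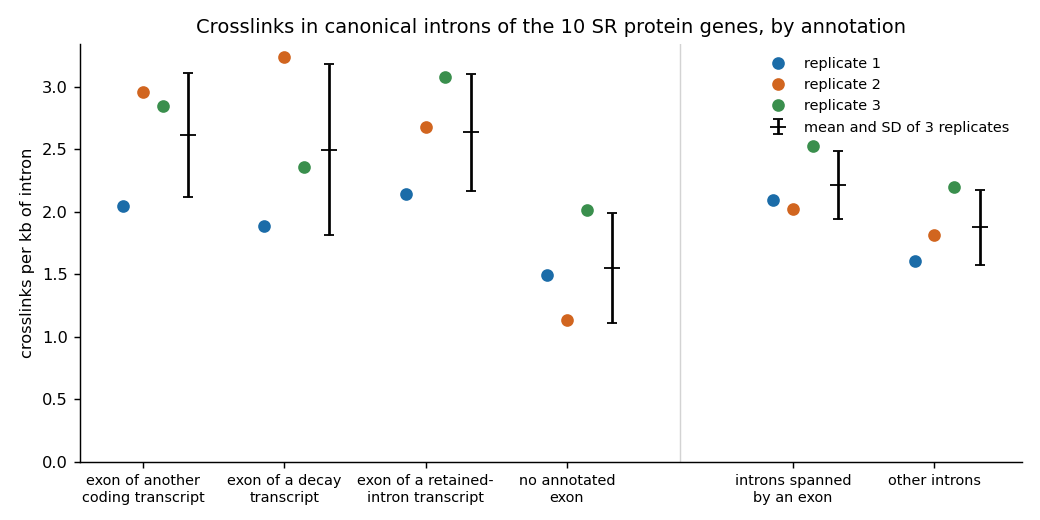
Crosslinks per kb (y axis) in the canonical introns of the 10 SR protein genes, divided on the left by the kind of transcript in which the base is exon and on the right by whether the whole intron is spanned by an annotated exon, with 1 point per replicate and the mean and SD in black. Bases with no annotated exon lie lowest at 1.55 ± 0.44, and on the right the spanned introns are higher in each replicate while the ranges overlap.

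Single annotated exons inside these introns numbered 89, of which 61 had a crosslink and 23 had 5 or more over the 3 libraries. Those 23 are overlapping versions of exons in 6 introns, so their counts are not independent. In intron 2 of Srsf10 the commonest version, 360 nt in 21 transcripts of which 20 are NMD transcripts (chromosome 4, 135586153 to 135586512), held 5, 24 and 7 crosslinks. In the 822-nt stretch of that intron that is exon in any transcript, replicate 2 had 26 of its 33 intronic crosslinks, whereas replicates 1 and 3 had 5 of 21 and 7 of 37, so the libraries differed in how far contacts in this intron lay within annotated exons. In intron 3 of Srsf7 an exon of 460 nt held 3, 6 and 5, in intron 5 of Srsf5 an exon of 534 nt held 3, 2 and 6, and in intron 3 of Srsf3 an exon of 456 nt held 1, 2 and 2.

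In the long introns of Srsf4 and Srsf11, crosslinks lay both within and outside annotated exons. In intron 1 of Srsf4, an NMD exon of 4113 nt held 5, 9 and 8 crosslinks, and the whole 5146-nt stretch with annotated exons had 7, 9 and 12 against 21, 21 and 25 in the other 12190 nt. In intron 3 of Srsf11, annotated exons form stretches of 1281 and 2027 nt that held 5, 7 and 5 and 8, 16 and 19 crosslinks. The larger one had 21.2 crosslinks per kb summed over the libraries, above any other stretch of that intron.

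Genes that act together with the SR proteins were described by a list of 37 SR-related factors and SR protein kinases. Of 35 that could be tested, 22 were called higher in exons than in introns (27.2% over all genes), none lower and 13 not. Their median log2 fold was 2.57, close to the 2.41 over all genes. In 12 of 31 the 3' UTR was called lower than the CDS (7.07% over all genes). A call also depends on the number of crosslinks in a gene, and the list was not matched to all genes on that number. Of 414 exons, 8 were called lower and 3 higher, against 0.235% and 0.135% over all exons. The higher ones were exon 10 of Srpk2, exon 10 of Srpk1, both in genes of kinases that phosphorylate SR proteins, and exon 2 of Arglu1. The 5 genes of the list with the highest level were Srpk2 (534 ± 274 CPM), Rbm25 (464 ± 140), Acin1 (437 ± 258), Son (426 ± 231) and Srrm2 (350 ± 65.6). Their means were all above that of Srsf11, the highest of the 10 SR protein genes, at 247 ± 82.4 CPM per whole gene.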

How the data were processed

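Crosslinks were taken from 3 iCLIP libraries of 1 group. The deposited values are counts of unique cDNAs per nucleotide and strand, made by the authors with the iMAPS pipeline from reads with molecular barcodes, without pooling of replicates. The submitters' processing notes list Trim Galore 0.6.7, Bowtie 1.3.1, STAR 2.7.9a, UMI-tools 1.1.2 and build mm39. The treatment of reads with several matches was not given in the sources used here, and it can lower counts in repeated sequence.

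Crosslinks on the gene strand were summed over GENCODE vM39 canonical exons, introns and UTRs (the stop codon was left out of the 3' UTR) (Python 3.11.15, numpy 2.4.6, scipy 1.17.1, pandas 2.3.3). CPM is relative to the library total, and crosslinks per kb are unscaled counts over length. The 2 parts of a gene were compared in each library with an exact binomial test (two-sided, expected share by length), over all genes with at least 10 crosslinks in both parts together over the 3 libraries, with Benjamini-Hochberg adjustment over all features and libraries. Log2 folds had 0.5 added to each count. This raises the fold of a part that is short beside its reference and holds few crosslinks, and medians over all genes carry it too. Tests cover counting error within each library, and SDs the spread between libraries. The scripts were tested on simulated data. Sequences came from GRCm39.

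The members and gene lists were chosen with earlier results of these data known. All 10 members are named. Within a member the named parts are the exon and intron with the most crosslinks, whatever was called, spanned introns with at least 3 crosslinks and alternative exons with at least 5. Srsf7 exons 5 to 7, Srsf11 exon 12, Srsf6 exon 4 and Srsf11 intron 9 were named after their values were seen. The alternatives were other length, overlap and minimum settings, a pseudocount of 0.1 and leaving out each library; the restriction to bases found once in the genome was added after the data were seen.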

Additional observations from a re-analysis of the deposited data

How the results depend on the processing

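Of 28 alternatives for the level and the counts of members called, 23 left them within 1.5 times or 1 SD. Scaled to crosslinks in protein-coding genes, the members' level was 1202 ± 50.2 CPM (SD, n = 3). By library total it was 784 ± 156 CPM. Protein-coding genes held 236585 of 348033 crosslinks in replicate 1, 329798 of 619571 in replicate 2 and 359355 of 488719 in replicate 3. The spread of CPM by library total thus also carries differences in that share. The number of exons called was 0 with no minimum of crosslinks and 0 with internal exons alone as reference, where Srsf2 exon 2, the only internal exon, could not be tested. The number of introns called was 1 without bases of other genes on the same strand and 1 without 50 nt at each splice site. Leaving out each library gave levels of 714 to 868 CPM, 2 to 3 genes called in exons over introns, 1 to 2 exons, 0 to 2 introns, 0 to 0 retained-intron comparisons and 2 to 3 genes in the 3' UTR comparison.

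Reversed values, none of them called, were log2 folds of exon over intron of 0.32 in Srsf3 with introns stripped of other transcripts' exons, and of 0.83 in Srsf3, 0.079 in Srsf10 and -0.55 in Srsf9 with exons of all transcripts, where Srsf5 was called (5.59, largest adjusted p of the exact tests 5.9e-05). Exons of transcripts of retained-intron type were not counted as exons in either setting. Srsf10 exon 6 was 0.58 and the Srsf10 3' UTR 0.13 with a pseudocount of 0.1, and Srsf9 exon 4 was -0.48 with internal exons as reference. Leaving out each library gave -0.83 to 0.00034 for Srsf3 exon over intron, -0.79 to 1.31 for Srsf10 exon 6, -0.43 to 1.69 for Srsf4 exon 6, -0.91 to 0.25 and -0.045 to 1.36 for the retained introns of Srsf10 and Srsf5, and -1.33 to 0.77 for the Srsf10 3' UTR. The cause was not tested. Of 217 other values for single genes, exons and introns, 204 kept direction and call.

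Over all genes, exons called higher numbered 23 with internal exons as reference and 163 to 364 without 1 library, against 114. Introns called higher numbered 401 to 462 without 1 library against 269, retained-intron genes 14 to 27 against 12 (8 with no minimum), and genes called in 3' UTR below CDS 445 to 666 against 391 (264 with no minimum). The retained-intron comparison with introns stripped of other transcripts' exons was not run, since no member kept both kinds. No paired analysis was possible because there is only 1 group, and no other group to match replicate numbers with; parts of transcripts were compared inside each library throughout. Low counts limit single exons and introns.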
